A study of Homo sapiens with 9 samples.

Results

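The genes described here encode the proteins of the mitochondrial ribosome. They were taken as all genes whose symbol is MRPL or MRPS followed by a number, with or without the ending A, B or C, and pseudogenes were left out. Of 77 such protein-coding genes in the RefSeq table, 75 had a probe set naming them alone, out of 19775 genes so covered on the array. MRPL53 and MRPS24 had no probe set of their own. The 75 genes had 140 probe sets, and each gene is given by its brightest one. All 75 passed the filter on dim probe sets, as did 14018 of all genes. By subunit, 50 of the encoded proteins belong to the large subunit, MRPS18A and MRPS30 included, and 25 to the small subunit.

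RNA came from HEK293 cells, an established line from human embryonic kidney, after transient transfection with surfactant protein C, a secreted protein of alveolar type II cells in the lung. The construct encoded the wild-type protein (WT), the protein without exon 4 (Ex4) or the L188Q substitution (LQ), and each had 3 arrays. Cells given the WT construct were the control, so every group carried surfactant protein C, and cells without a construct or with an empty one were not analysed here. Transfected and untransfected cells of a dish were measured together, and fewer cells of a kind and less RNA per cell cannot be told apart.

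Mitochondrial ribosomes translate the few messenger RNAs of the mitochondrial genome, which encode core subunits of the respiratory chain and of ATP synthase. All of their proteins are encoded in the nucleus, made in the cytosol and imported, whereas their ribosomal RNAs are transcribed inside the organelle. Many of the proteins have counterparts in bacterial ribosomes, and others are found only in mitochondrial ribosomes.

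The 9 arrays differed in overall signal although the MAS5 scaling had given them a common mean. The median signal over all probe sets was 506.4 to 524.4 in WT, 316.1 to 434.3 in Ex4 and 303.9 to 371.8 in LQ. For GAPDH the 3′ probe set divided by the 5′ one, which tracks RNA integrity, gave 1.21 to 1.43 in WT, 0.956 to 1.22 in Ex4 and 1.06 to 1.09 in LQ. For ACTB it was 1.05 to 1.27, 1.15 to 1.48 and 1.15 to 1.23. All 7 markers of HEK293 cells (KRT8, KRT18, VIM, CDH2, PAX2, NEFM and NEFL) lay above the array median on all 9 arrays, with summed signals of 151954.4 to 193271.5 in WT, 142778.1 to 152943.5 in Ex4 and 149412.0 to 161372.9 in LQ. VIM gave the largest part of these sums, at 85969.5 to 109975.5 in WT, 75723.6 to 83692.5 in Ex4 and 77275.9 to 90320.2 in LQ. PAX2 was lower on all mutant arrays, at 1533.2 to 2800.6 in WT, 385.1 to 1149.5 in Ex4 and 407.8 to 535.5 in LQ. VIM lay below all WT arrays on every Ex4 array and overlapped WT in LQ. The HEK293 markers other than VIM and PAX2 overlapped between each mutant and WT. Of 5 fibroblast markers only COL1A1 lay above the median on all 9 arrays and COL3A1 and LUM on none, and their sums were 6480.3 to 7800.8, 4626.3 to 5850.5 and 3120.6 to 4277.0. Of 5 blood cell markers only CD79A lay above the median on all 9 arrays and PTPRC and LYZ on none, with sums of 1887.0 to 2760.0, 1377.6 to 1454.7 and 1198.1 to 1368.6. Of 4 alveolar type II markers other than the transfected gene, SFTPB and LAMP3 lay above the median on all 9 arrays, with sums of 3619.0 to 4259.8, 3018.8 to 3900.9 and 3318.7 to 4363.2. The part of any of these differences in the results was not tested.

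The mitochondrial ribosomal protein genes were among the brighter genes, and dim and bright genes had moved differently between the groups. The dimmest of the 75, MRPL44, had a mean of 11.48 on the scale log2(signal + 16) over the 9 arrays, and 5684 of the 14018 genes were at least that bright. From WT to LQ the median change was -0.09 (log2) over all genes and 0.14 over those 5684. From WT to Ex4 the corresponding medians were -0.08 and 0.11. Counts of members are therefore set beside the same counts over all genes and over the 5684 genes, called bright genes below. The bright genes were not matched to the members in brightness. Their median level per array was 12.50 to 12.71, and that of the members 12.78 to 13.16.

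**Figure D1:**
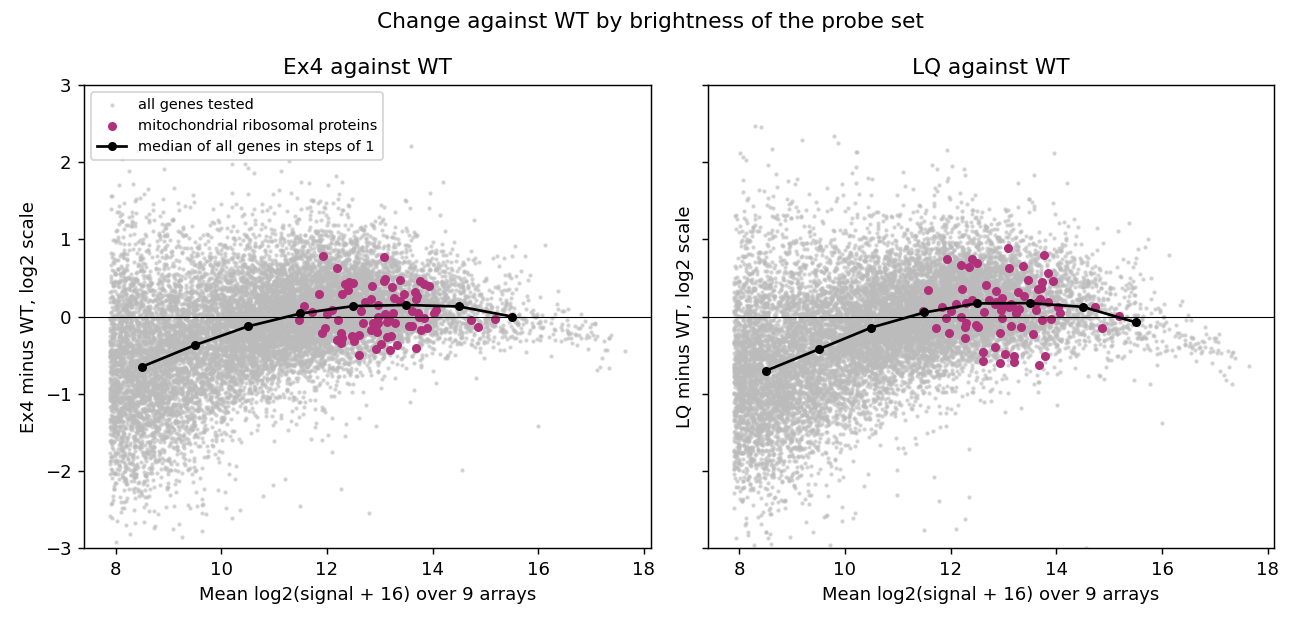
Change of every tested gene (y axis, log2, mutant minus WT) against its mean level (x axis, mean log2(signal + 16) over 9 arrays) in Ex4 and LQ, with the 75 mitochondrial ribosomal protein genes as coloured points, all genes in grey and the line giving the median of all genes per brightness bin. The members start at a mean of 11.48, where the line lies above its values for dim genes, and 3 genes in Ex4 and 10 in LQ lie outside the plotted range.

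In LQ against WT, 6 of the 75 genes rose past an adjusted p of 0.05 (limma over all 9 arrays, Benjamini-Hochberg over 32768 probe sets) and 0 fell. They were MRPS18C, MRPL10, MRPL46, MRPL50, MRPS18B and MRPL32, with rises of 1.47-fold to 1.84-fold. The share that rose, 8.0%, stood beside 3.69% of all genes and 7.72% of bright genes, so it was near that of bright genes. The share of all genes that fell was 3.63%, and of bright genes 1.43%. At an unadjusted p under 0.05, 15 members were higher and 7 lower, against 13.4% and 17.2% of all genes and 24.9% and 8.0% of bright ones. The members' log2 changes ran from -0.62 to 0.88 with a median of 0.12 and an SD over genes of 0.35, and 49 of 75 were positive (43.6% of all genes, 62.5% of bright ones). The sign of that median turned with scaling: it was -0.010 after quantile normalization and 0.70 after centring each array on its median, where the median of all genes was 0.49. The calls were 2 higher and 2 lower after quantile normalization and 36 higher and 0 lower after centring. How many of all genes were called under these scalings is not given here.

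MRPS18C, a small-subunit protein and one of the human counterparts of bacterial ribosomal protein S18, had signals of 5194.7, 6336.0 and 6292.7 on the WT arrays. They were 11902.6, 8311.8 and 10469.9 on the Ex4 arrays and 11495.0, 10264.8 and 11036.3 on the LQ arrays. Every array of either mutant lay above every WT array. The rise in LQ was 0.88 ± 0.17 (log2, SE, n = 3 and 3), or 1.84-fold, with an adjusted p of 0.024 in limma.

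MRPL10 encodes a protein at the base of the stalk that recruits translation factors to the large subunit. Its signals were 8449.9, 11615.2 and 11417.8 in WT and 13147.8, 14177.0 and 15705.2 in Ex4. They were 17933.9, 16188.0 and 20559.0 in LQ. The 3 groups did not overlap, with LQ highest and WT lowest. The rise in LQ was 0.80 ± 0.17 (log2, SE), or 1.75-fold (limma adjusted p = 0.028).

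MRPL46 and MRPL50 encode large-subunit proteins without a bacterial counterpart. MRPL46 had signals of 3227.5, 4439.0 and 4840.5 in WT, 5358.9, 6593.7 and 5038.7 in Ex4, and 6935.8, 6862.6 and 6945.8 in LQ. MRPL50 had 3597.3, 2479.0 and 2292.2 in WT, 4446.1, 4227.0 and 5611.3 in Ex4, and 4916.8, 4328.4 and 4514.5 in LQ. For both genes the WT arrays lay below all 6 mutant arrays, and the LQ arrays of MRPL46 also lay above all its Ex4 arrays. The rises in LQ were 0.75 ± 0.19 (log2, SE), or 1.68-fold, for MRPL46 (limma adjusted p = 0.040) and 0.74 ± 0.20, or 1.67-fold, for MRPL50 (adjusted p = 0.0495). The other probe sets of MRPL50 differed by 0.05 and 0.23 in LQ, with adjusted p of 0.88 and 0.69 in limma.

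MRPS18B, another S18-related protein of the small subunit, had signals of 6918.3, 9323.5 and 8446.8 in WT, 9603.0, 13030.9 and 11732.0 in Ex4, and 12070.6, 12507.1 and 14183.3 in LQ. MRPL32, a zinc-binding large-subunit protein that is cut to its mature form inside mitochondria, had 12093.8, 11432.8 and 11579.4 in WT, 15498.8, 16210.6 and 15231.4 in Ex4, and 17806.3, 15798.5 and 18200.3 in LQ. In both genes all mutant arrays again exceeded all WT arrays. Both mutants were set against the same WT arrays, and these genes were picked by LQ against WT. The pattern is therefore no independent agreement between the mutants, and the share of all genes with it is not given here. The rises in LQ were 0.66 ± 0.17 (log2, SE), or 1.58-fold, for MRPS18B (limma adjusted p = 0.044) and 0.56 ± 0.13, or 1.47-fold, for MRPL32 (adjusted p = 0.035). The second probe set of MRPS18B differed by 0.53 (adjusted p = 0.13).

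**Figure D2:**
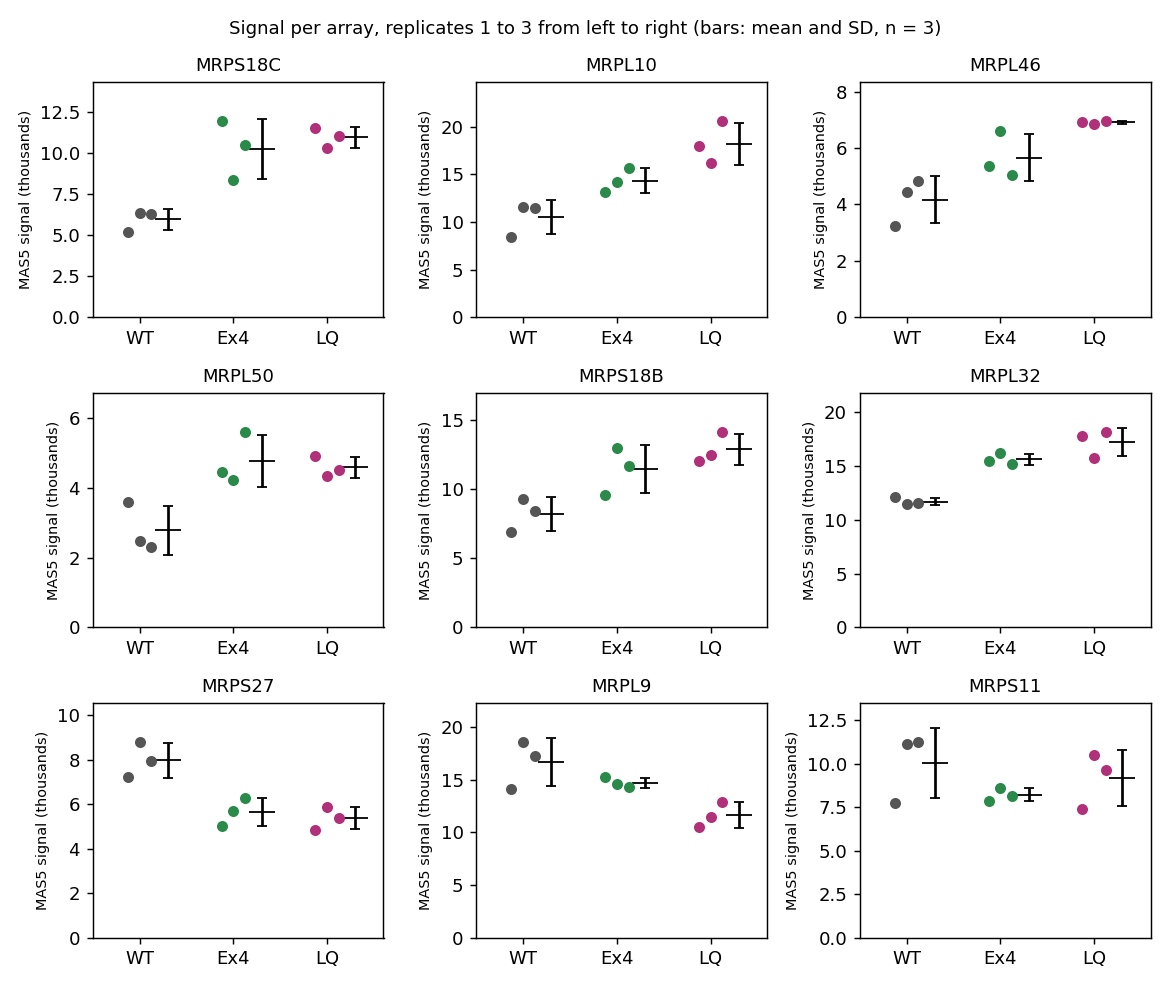
MAS5 signal (y axis, linear, from 0) on each array of WT, Ex4 and LQ for the 6 genes that rose in LQ and for 3 further members, with MRPS27, MRPL9 and MRPS11 in the last row, points for arrays and bars for the mean and SD (n = 3). In the 6 genes every LQ and Ex4 point lies above every WT point, as for MRPS18C, where the highest WT array is at 6336.0 and the lowest mutant array at 8311.8.

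No member passed in the other direction, and the 6 with the smallest p among those lower in LQ are given as values. MRPS27, a small-subunit protein of the pentatricopeptide repeat family, had 7203.2, 8791.6 and 7921.7 in WT, 5019.6, 5691.5 and 6275.2 in Ex4, and 4855.0, 5850.0 and 5374.6 in LQ. All 6 mutant arrays lay below all WT arrays, and the difference was -0.57 ± 0.16 (log2, SE) in LQ (limma adjusted p = 0.053). MRPL9, the counterpart of bacterial protein L9, had 14136.5, 18562.5 and 17227.9 in WT, 15197.9, 14585.9 and 14269.1 in Ex4, and 10470.9, 11444.7 and 12915.5 in LQ. Its LQ arrays lay below all others, at -0.51 ± 0.15 from WT (adjusted p = 0.059), while its second probe set differed by 0.05.

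MRPL33, the counterpart of bacterial L33, had 15583.2, 17409.1 and 16937.7 in WT, 15043.2, 16106.2 and 8162.5 in Ex4, and 13298.8, 9287.2 and 10173.5 in LQ. The LQ difference was -0.62 ± 0.24 (log2, SE; limma adjusted p = 0.11), the lowest value among the members. MRPS6, a small-subunit protein, had 7631.9, 11823.1 and 10803.7 in WT, 9708.3, 6772.4 and 6150.1 in Ex4, and 6318.7, 6120.2 and 7280.9 in LQ, at -0.60 ± 0.21 in LQ (adjusted p = 0.095). In both genes the LQ arrays lay below all WT arrays and the Ex4 arrays did not. MRPL17, the counterpart of bacterial L17, had 11377.7, 12769.8 and 11661.0 in WT, 13204.4, 6466.2 and 7981.5 in Ex4, and 7923.2, 7225.0 and 8673.4 in LQ, at -0.59 ± 0.22 (adjusted p = 0.11). MRPS22, a small-subunit protein without a bacterial counterpart, had 7648.7, 7423.9 and 7030.5 in WT, 5517.8, 7330.2 and 5937.0 in Ex4, and 4857.4, 5586.7 and 5626.5 in LQ, at -0.46 ± 0.16 (adjusted p = 0.090). Both had LQ arrays below all WT arrays, and Ex4 replicate 1 of MRPL17 was the highest of its 9 arrays.

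Counted by overlap alone, all 3 LQ arrays lay above all 3 WT arrays for 19 of the 75 genes (25.3%, beside 15.7% of all genes and 28.4% of bright ones) and below them for 7 (9.33%, beside 23.2% and 11.0%). The 19 were MRPL1, MRPL10, MRPL15, MRPL16, MRPL20, MRPL32, MRPL37, MRPL46, MRPL50, MRPL51, MRPS9, MRPS10, MRPS17, MRPS18B, MRPS18C, MRPS21, MRPS30, MRPS31 and MRPS35. The 7 were MRPL9, MRPL17, MRPL33, MRPL45, MRPS6, MRPS22 and MRPS27. Both shares were nearer to those of bright genes than to those of all genes.

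The number of members called in LQ rested on single arrays. Counts over all genes in the same fits are not given here, so this is not shown to be particular to the members. Leaving out WT replicate 2, WT replicate 3 or any 1 of the 3 LQ arrays left 0 of the 75 genes past the threshold, and leaving out Ex4 replicate 1 gave 11 (8 higher, 3 lower). Without WT replicate 1 there were 15 (9 higher, 6 lower): MRPL1, MRPL10, MRPL19, MRPL32, MRPL39, MRPL46, MRPL50, MRPS18B and MRPS18C were higher and MRPL9, MRPL23, MRPL30, MRPS6, MRPS12 and MRPS27 lower. All 6 genes called with every array were among them. On WT replicate 1, 34 of the 75 had their lowest of 9 values, against 6 for each of the other WT arrays. The share of other genes with their lowest value there is not given here. The median deviation of the members from their mean over arrays was -0.28 (log2) on WT replicate 1. It was 0.06 and 0.07 on the other WT arrays and -0.07 to 0.14 on the mutant arrays. Over bright genes it was also lowest on WT replicate 1, at -0.09, with -0.06 to -0.04 on the other WT arrays. WT replicate 1 had the highest GAPDH ratio of 3′ to 5′ signal of the 9 arrays, 1.43. Its ACTB ratio, 1.27, was the highest in WT and was exceeded in Ex4. The part of this in the results was not tested.

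**Figure D3:**
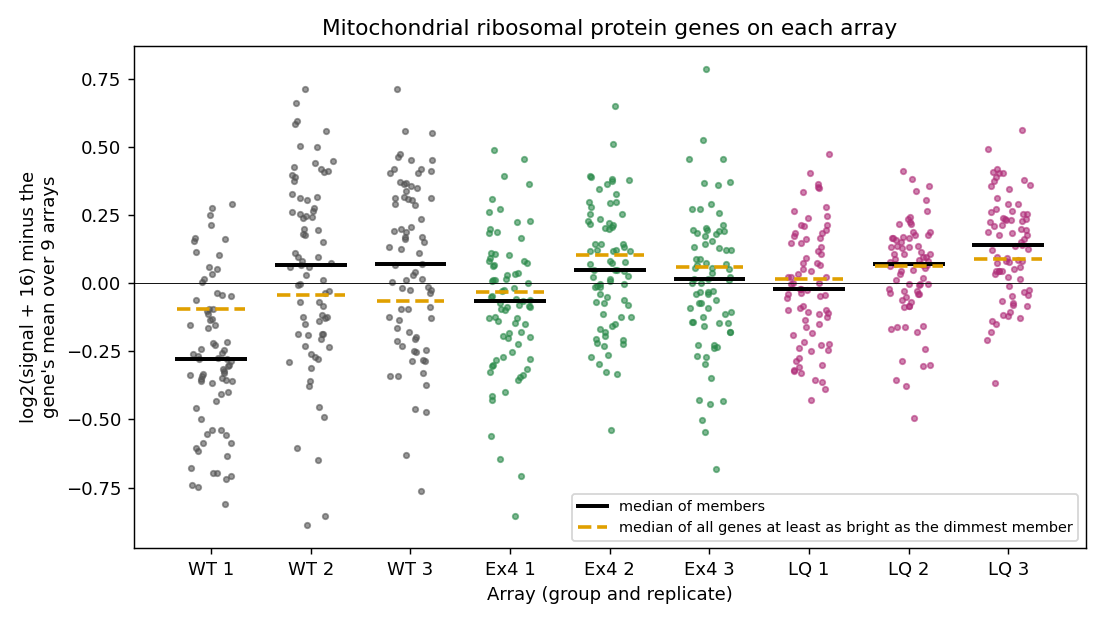
Deviation of each of the 75 genes from its own mean over 9 arrays (y axis, log2 of signal + 16) on each array (x axis), with the members' median as a black line and the median of all genes at least as bright as the dimmest member as a dashed line. The members' median on WT replicate 1, -0.28, is the lowest, and those of the other arrays lie between -0.07 and 0.14.

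In Ex4 against WT, 0 of the 75 genes passed the threshold, and neither did any of all genes (0.0%, limma with Benjamini-Hochberg adjustment). At an unadjusted p under 0.05, 9 members were higher and 1 was lower, against 12.1% and 15.1% of all genes and 22.1% and 6.39% of bright ones. The log2 differences ran from -0.49 to 0.79 with a median of -0.0017 and an SD over genes of 0.29, and 37 were positive (43.6% of all genes, 61.8% of bright ones). That median was -0.08 after quantile normalization and 0.49 after centring each array on its median, where the median of all genes was 0.41. All 3 Ex4 arrays lay above all WT arrays for 14 members (18.7%, beside 9.07% of all genes and 16.4% of bright ones) and below them for 1 (1.33%, beside 14.9% and 5.35%).

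The 14 were MRPL1, MRPL10, MRPL13, MRPL32, MRPL46, MRPL50, MRPL51, MRPS9, MRPS17, MRPS18B, MRPS18C, MRPS28, MRPS30 and MRPS35, and the 1 below was MRPS27. MRPL50 differed by 0.79 ± 0.20 (log2, SE; limma adjusted p = 0.081) and MRPS18C by 0.77 ± 0.17 (adjusted p = 0.077), or 1.72-fold and 1.71-fold. MRPL1, the protein of the mobile L1 stalk, had 4197.8, 2578.4 and 3826.0 in WT, 5480.4, 6138.2 and 4545.7 in Ex4, and 5616.7, 4825.9 and 6177.3 in LQ. It was higher on all 6 mutant arrays, by 0.63 ± 0.21 in Ex4 (adjusted p = 0.11) and 0.67 in LQ (adjusted p = 0.070). MRPS18B differed by 0.48 ± 0.17 in Ex4 (adjusted p = 0.13), MRPL10 by 0.46 ± 0.17 (adjusted p = 0.13) and MRPL32 by 0.42 ± 0.13 (adjusted p = 0.10). MRPL46 was at 0.45 ± 0.19 (adjusted p = 0.16).

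On the lower side MRPS27 differed by -0.49 ± 0.16 in Ex4 (limma adjusted p = 0.11). MRPL17 was at -0.44, MRPS6 at -0.42, MRPL33 at -0.40, MRPL30 and MRPS7 both at -0.36, and their Ex4 arrays overlapped the WT arrays. MRPS7 is the counterpart of a small-subunit protein that starts the assembly of the head domain in bacteria, and MRPL30 of bacterial L30. Without WT replicate 1 the count in Ex4 was 9, with MRPL1, MRPL13, MRPL19, MRPL50 and MRPS18C higher and MRPL30, MRPS7, MRPS12 and MRPS27 lower. Without Ex4 replicate 1 it was 7, with MRPL20, MRPL47, MRPL50, MRPL51, MRPS18B and MRPS18C higher and MRPL17 lower. Counts over all genes without these arrays are not given here.

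**Figure D4:**
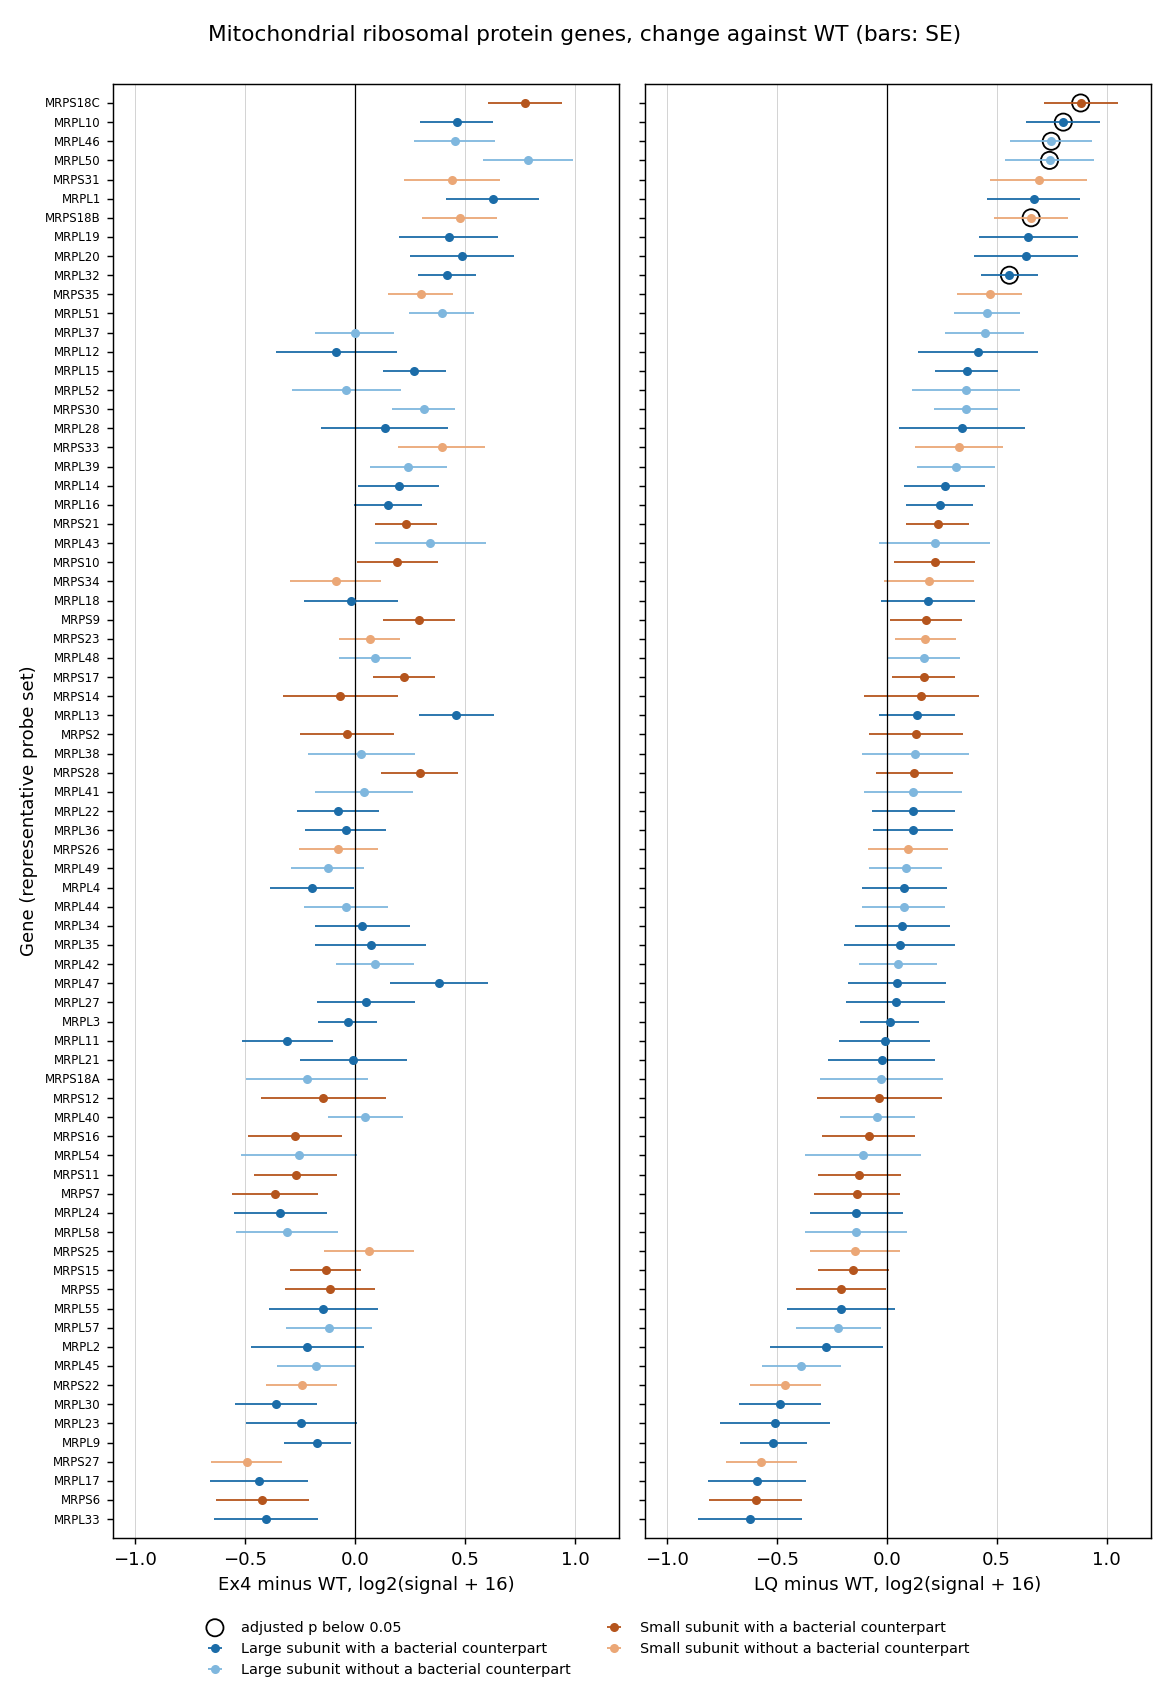
Log2 difference from WT (x axis) in Ex4 and in LQ for each of the 75 genes, ordered by the LQ value and coloured by subunit and bacterial counterpart, with bars for the SE. The 6 genes past the threshold in LQ are circled, from MRPL32 at 0.56 to MRPS18C at 0.88, and the values in LQ reach down to -0.62 for MRPL33.

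Between LQ and Ex4, 0 of the 75 genes and 0.0% of all genes passed the threshold in limma. At an unadjusted p under 0.05 the members gave 1 higher and 1 lower in LQ, beside 2.19% and 2.0% of all genes and 3.22% and 1.62% of bright ones. The differences ran from -0.34 to 0.50 with a median of 0.08, and 47 were positive (48.5% of all genes, 51.8% of bright ones). Their SD over genes was 0.18, smaller than in either comparison with WT. It was also smaller over all genes, at 0.36 beside 0.65 for Ex4 and 0.68 for LQ against WT. Over bright genes it was 0.22 beside 0.42 and 0.46. The LQ arrays lay above all Ex4 arrays for 9 genes (12.0%, beside 5.91% of all genes and 8.29% of bright ones), namely MRPL4, MRPL10, MRPL24, MRPL37, MRPL46, MRPL49, MRPL52, MRPS23 and MRPS34. They lay below for MRPL9 and MRPL13 (2.67%, beside 6.47% and 6.33%).

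MRPL37, a large-subunit protein without a bacterial counterpart, had 11661.5, 11682.4 and 13625.1 in Ex4, 15812.4, 16835.2 and 17687.2 in LQ, and 9369.8, 12974.3 and 15320.8 in WT. LQ minus Ex4 was 0.45 ± 0.18 (log2, SE, 95% interval 0.05 to 0.84), with an unadjusted limma p of 0.029 and an adjusted p of 0.9999. MRPL12, which forms the stalk with MRPL10, gave 0.50 (interval -0.10 to 1.10), and its Ex4 arrays spread from 3601.0 to 7784.8 while its LQ arrays lay at 7741.0 to 8644.4. MRPL10 gave 0.34 (interval -0.02 to 0.71). On the other side MRPL9 gave -0.34 (interval -0.67 to -0.01), MRPL47 -0.34 (interval -0.82 to 0.15) and MRPL13 -0.32 (interval -0.69 to 0.05).

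For the 6 genes that rose in LQ, the intervals of LQ minus Ex4 included 0. They were -0.26 to 0.48 for MRPS18C, -0.11 to 0.70 for MRPL46, -0.49 to 0.40 for MRPL50, -0.19 to 0.55 for MRPS18B and -0.15 to 0.43 for MRPL32. These intervals allow differences either way, so the data do not show whether the mutants differed in these genes.

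By place in the ribosome, the rises in LQ were spread over both subunits. Of 30 large-subunit members with a bacterial counterpart, 2 rose (MRPL10 and MRPL32), 20 were positive and the median was 0.08 (log2). Of 20 large-subunit members without one, 2 rose (MRPL46 and MRPL50), 14 were positive and the median was 0.13. Of 15 small-subunit members with a counterpart, 1 rose (MRPS18C), 8 were positive and the median was 0.13, and of 10 without one, 1 rose (MRPS18B), 7 were positive and the median was 0.18. In Ex4 the medians of these 4 groups were -0.01, 0.04, -0.07 and 0.06, with 14, 11, 6 and 6 positive. The difference between the groups was not tested.

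The brightest members were MRPL3, MRPS15 and MRPL36, and none passed the threshold. MRPL3, which lies close to the peptidyl transferase centre, had 33412.5, 40108.3 and 38920.1 in WT, 37480.0, 33316.0 and 38977.0 in Ex4, and 38315.3, 36462.3 and 38389.1 in LQ, and its differences were -0.03 in Ex4 and 0.01 in LQ. MRPS15, which binds the small-subunit ribosomal RNA, was at -0.15 in LQ, and MRPL36 at 0.12. The dimmest were MRPL44, a double-stranded RNA-binding family member at 0.08 in LQ, MRPL28 at 0.34 and MRPS25 at -0.14.

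The 3 S18-related genes had different values. MRPS18A, whose protein sits in the large subunit, had 2536.3, 5083.4 and 5104.8 in WT, 3139.8, 3043.4 and 4361.7 in Ex4, and 3718.0, 3365.8 and 5006.1 in LQ. Its groups overlapped, and the difference was -0.02 in LQ (95% interval -0.63 to 0.58) and -0.22 in Ex4, beside the rises of MRPS18B and MRPS18C. A second MRPS18A probe set was at 0.52 in LQ (limma adjusted p = 0.27). Whether the changes of the 3 genes differed was not tested.

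The regions around the start sites of 67 members were in the RefSeq promoter table (GRCh38.p14, 250 bases before to 50 after each start), and known motifs of housekeeping promoters were searched on both strands. For YY1, a zinc-finger factor, the core AAGATGG was found in 23 of 67 members (34.3%), beside 7.11% of 27305 genes. A longer form, this core followed directly by CGGC, was found in 9 (13.4%, beside 1.04%), and each of its matches holds the core. The ETS family motif CCGGAAG was found in 29 (43.3%, beside 12.2%). The NRF1 motif, GCGCA followed by its own reverse complement, was found in 1 (1.49%, beside 1.52%). The 27305 genes include genes that were not tested. Shares among bright genes alone are not given here, so no motif is shown to be particular to the members. The long YY1 form was read on the sense strand in 8 of the 9, each time after the start, with its first base 7 to 36 bases from it. The windows below are shown because 3 of the 6 genes that rose in LQ hold this form, and so does MRPS18A. How often all genes with this form rose is not given here, so these 3 give no result about the form. Capitals mark the motif, and MRPL36 carries it on the other strand.
MRPL46, chr15:88467360-88467389, minus strand: ggagaacgaAAGATGGCGGCgcccgtaagg
MRPL50, chr9:101398575-101398604, minus strand: atctcatcgAAGATGGCGGCgcgatctgtg
MRPS18B, chr6:30617854-30617883, plus strand: gcgtacgtcAAGATGGCGGCgtctgtatta
MRPS18A, chr6:43687762-43687791, minus strand: aggtttttgAAGATGGCGGCcctcaaggct
MRPL36, chr5:1799855-1799884, minus strand: cccccccccGCCGCCATCTTccttcctggc

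The 9 genes with the long YY1 form were MRPL22, MRPL36, MRPL38, MRPL46, MRPL50, MRPS10, MRPS18A, MRPS18B and MRPS30. Their median difference in LQ was 0.22 (log2), beside 0.08 for the members without it and 0.16 for all 243 tested genes with it. MRPS30 was at 0.36 (limma adjusted p = 0.13) and MRPS10 at 0.22 (adjusted p = 0.45), with all LQ arrays above all WT arrays. MRPL22 was at 0.12 in LQ and MRPL38 at 0.13, both with overlapping arrays. Members with and without the ETS motif had medians of 0.17 and 0.10, and those with and without the YY1 core 0.12 and 0.13. The 1 member with the NRF1 motif was at -0.59, beside a median of 0.12 for the others. These are matches of letters and no binding was measured.

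MRPL46 and MRPS11 are neighbours on chromosome 15, with starts 320 bases apart and transcribed away from each other. MRPS11 encodes a small-subunit protein with a bacterial counterpart. The 250 bases before the MRPL46 start follow, with the 181 bases that also lie within 250 bases before the MRPS11 start in capitals.
MRPL46, chr15:88467389-88467638, minus strand: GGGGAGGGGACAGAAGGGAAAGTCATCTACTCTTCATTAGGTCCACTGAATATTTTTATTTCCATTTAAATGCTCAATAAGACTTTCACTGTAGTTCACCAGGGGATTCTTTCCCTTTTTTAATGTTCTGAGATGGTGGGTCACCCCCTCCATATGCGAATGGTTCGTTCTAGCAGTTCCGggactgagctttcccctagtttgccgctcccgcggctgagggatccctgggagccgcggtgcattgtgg

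MRPS11 did not pass the threshold in either mutant. It had signals of 7710.9, 11142.7 and 11245.3 in WT, 7868.7, 8600.5 and 8148.5 in Ex4, and 7396.1, 10494.4 and 9618.6 in LQ, at -0.27 in Ex4 and -0.12 in LQ. The log2 ratio of MRPL46 to MRPS11 was -1.25, -1.32 and -1.21 in WT, -0.55, -0.38 and -0.69 in Ex4, and -0.09, -0.61 and -0.47 in LQ. Each mutant array had a higher ratio than each WT array, by 0.87 on average in LQ and 0.72 in Ex4. The exact permutation p was 0.1 for each mutant, two-sided, which is the smallest that 3 arrays against 3 can give, and the pair was picked after its values were seen.

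Other probe sets of the same genes did not always go with the brightest one. Of 30 members with 2 or more tested probe sets, all had the same sign in 17 in Ex4 and in 15 in LQ. Of the 54 further probe sets, 0 were called higher and 5 lower in LQ. A pair of MRPS22 probe sets fell in LQ, by 1.52 ± 0.25 (log2, SE; limma adjusted p = 0.019) and by 1.31 ± 0.17 (adjusted p = 0.011). The first read 6210.4, 6914.5 and 5958.0 in WT, 5463.8, 2688.7 and 3221.6 in Ex4, and 1879.8, 2166.9 and 2625.7 in LQ, with no LQ array near a WT array. The second read 5897.5, 5844.5 and 4805.4 in WT, 2486.2, 2282.0 and 2630.5 in Ex4, and 2122.0, 2142.5 and 2357.9 in LQ. The 4 probe sets of MRPS22 are all of the type that may match further transcripts, so the gene's value is uncertain.

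The other 3 were a probe set each of MRPL57, MRPL19 and MRPS5. That of MRPL57 fell by 0.88 ± 0.22 (log2, SE; limma adjusted p = 0.041). That of MRPL19 fell by 1.58 ± 0.29 (adjusted p = 0.023), whereas the gene's brightest probe set read 5812.2, 3401.7 and 3344.3 in WT, 5087.0, 6376.5 and 4957.9 in Ex4, and 7203.1, 5543.7 and 6338.2 in LQ, or 0.64 (adjusted p = 0.091). The MRPS5 probe set was dim, at 500.3 to 1018.8 in WT and 58.7 to 254.4 in LQ, and fell by 2.64 ± 0.61 (adjusted p = 0.034). Wide spreads of the same kind were seen for MRPL41 (-1.86 to 0.12 in LQ), MRPL52 (-1.20 to 0.36 in LQ), MRPS31 (-0.54 to 0.69 in LQ), MRPL47 (-1.29 to 0.38 in Ex4), MRPS12 (-1.74 to 0.29 in Ex4) and MRPS23 (-1.03 to 0.07 in Ex4).

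Bright and dim further probe sets had different medians. The 17 further probe sets at least as bright as MRPL44's brightest one had a median difference of 0.05 in LQ with 2 called lower, both of MRPS22, and the 37 dimmer ones -0.37 with 3 called lower. Over all tested probe sets the same division gave 0.14 (9145 probe sets, 743 called higher and 167 lower) and -0.30 (23623 probe sets, 268 higher and 1053 lower). The part of probe position, transcript form or brightness in this was not tested.

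**Figure D5:**
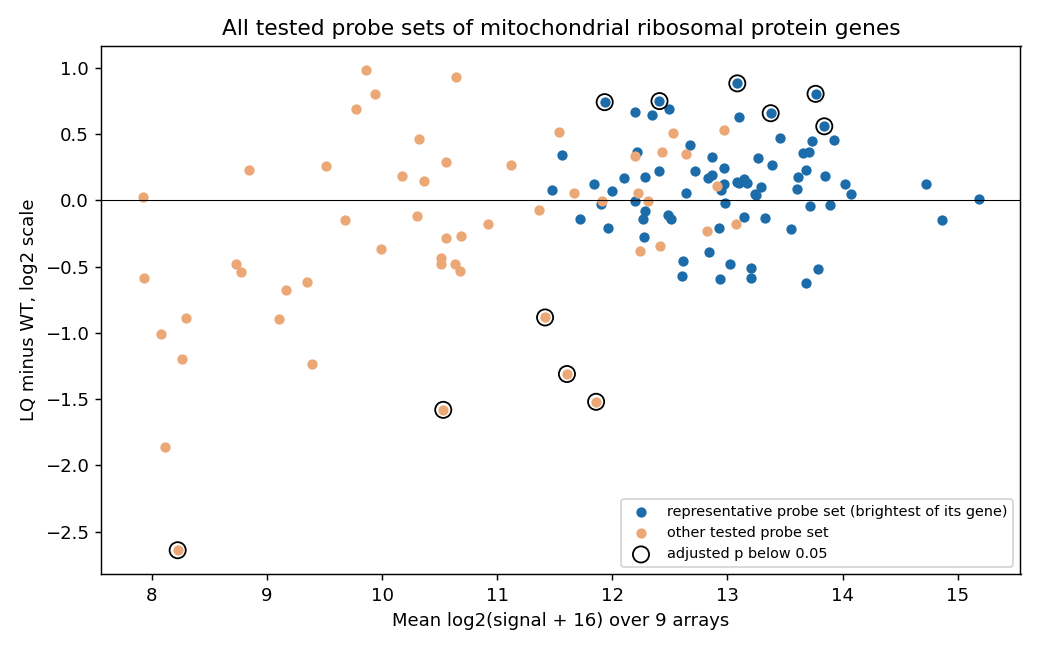
Log2 difference between LQ and WT (y axis) against mean log2(signal + 16) over 9 arrays (x axis) for the tested probe sets of the 75 genes, with the brightest of each gene and the others in different colours. The 5 further probe sets called lower, from -0.88 to -2.64, and the 6 brightest ones called higher are circled, and the brightest probe sets of all genes lie between -0.62 and 0.88.

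Genes that work with these proteins were described from lists of other mitochondrial ribosomal proteins, assembly factors and translation factors, and 0 of them passed in Ex4. Their counts in LQ stand beside 3.69% of all genes and 7.72% of genes at least as bright as MRPL44 that rose, 3.63% and 1.43% that fell, and 43.6% and 62.5% that were positive. Of 5 mitochondrial ribosomal proteins with other kinds of symbol, 4 were tested, 3 were positive and 1 rose in LQ. This was DAP3, a GTP-binding protein of the small subunit, with 6141.2, 8275.1 and 6279.5 in WT, 7916.1, 12438.8 and 8937.6 in Ex4, and 11615.1, 12383.1 and 14449.8 in LQ. Its LQ arrays lay above all WT arrays, by 0.90 ± 0.20 (log2, SE; limma adjusted p = 0.030), and it was at 0.49 in Ex4. PTCD3, a pentatricopeptide repeat protein of the small subunit, was at 0.41 in LQ (adjusted p = 0.13) and 0.37 in Ex4, and GADD45GIP1, a large-subunit protein, at -0.06 in LQ. The median of these 4 was 0.48 in LQ and 0.43 in Ex4.

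Of 26 assembly factors 25 were tested, 17 were positive in LQ, 1 rose and 1 fell, and the median was 0.07. MRM3, which methylates the large ribosomal RNA, rose by 0.73 ± 0.17 (log2, SE; limma adjusted p = 0.036) and was at 0.26 in Ex4. DHX30, an RNA helicase of mitochondrial RNA granules, had 8488.2, 11925.8 and 9787.0 in WT, 6203.3, 6145.1 and 6055.3 in Ex4, and 6366.1, 6371.6 and 5875.3 in LQ. All its mutant arrays lay below all WT arrays, and it fell by 0.68 ± 0.16 in LQ (adjusted p = 0.034) and was at -0.70 in Ex4 (adjusted p = 0.077). RPUSD4, a pseudouridine synthase, was at 0.77 in LQ (adjusted p = 0.16) and MALSU1, which acts late in large-subunit assembly, at -0.19. In Ex4 the median was -0.03, with MTERF3 at 0.68 (adjusted p = 0.12), the GTPase MTG2 at 0.49 and the RNA methyltransferase NSUN4 at -0.61 (adjusted p = 0.088).

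Of 18 translation factors 16 were tested, 11 were positive in LQ, 2 rose and 0 fell, and the median was 0.18 in LQ and 0.09 in Ex4. SLIRP, which stabilises mitochondrial messenger RNAs together with LRPPRC, had 21876.7, 15827.6 and 14851.0 in WT, 29108.3, 30310.5 and 23298.1 in Ex4, and 30388.3, 30667.0 and 27998.2 in LQ. Its mutant arrays all exceeded its WT arrays, with a rise of 0.78 ± 0.17 in LQ (log2, SE; limma adjusted p = 0.031) and a difference of 0.67 in Ex4 (adjusted p = 0.081). MTRF1L, a release factor, rose by 0.95 ± 0.21 in LQ (adjusted p = 0.030) and was at 0.72 in Ex4 (adjusted p = 0.091). MTFMT, which formylates the initiator transfer RNA, was at -0.59 in LQ and -0.66 in Ex4, and the elongation factor TSFM at -0.38 and -0.58, with no call.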

How the data were processed

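Total RNA of 9 HEK293 samples, 3 each for WT, Ex4 and LQ, was hybridised to Affymetrix arrays. The deposited values are linear intensities, and the submitters' processing notes name MAS5, with its version not given in the sources used here. Nothing tells whether replicates came from separate dishes. The p-values therefore measure the spread between these arrays alone, and it may be technical. Of 54675 probe sets, 62 controls were left out, 41091 carried 1 gene symbol, 1801 several and 11721 none. Symbols were updated through a RefSeq table. Values were used as log2(value + 16), on which fold changes of dim probe sets are understated. The 32768 probe sets with a mean of at least percentile 40 were tested.

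All 9 arrays entered a single limma fit (limma 3.58.1 in R 4.3.3, variance trend on, no replicate block), with Benjamini-Hochberg adjustment within each of 3 two-sided contrasts and a threshold of 0.05. Intervals are 95% intervals of that fit. On simulated data for 32768 probe sets it recovered 14% of 2-fold and 68% of 4-fold changes in LQ against WT, with 6 false calls, and 15% and 70% in Ex4 against WT, with 3. Only a small part of the probe sets was changed there, at any brightness and with the same spread in every group. These rates therefore do not give the recovery for the members. The number of arrays limits the precision. Deviations of arrays with the same replicate number correlated between -0.083 and 0.191, and those with different numbers between -0.229 and 0.164. No clear pairing by number was seen, but 3 arrays per group are too few to settle it.

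Members and lists were chosen with earlier results of these data known. Named members are, for each mutant against WT, the genes past the threshold filled up to 6 each way by smallest p, 3 each way between the mutants, the 3 brightest and 3 dimmest, genes whose probe sets disagree in sign by more than 1, the MRPS18 genes, and from each list the 2 with the smallest p each way in each mutant. MRPS10, MRPS11, MRPS30, MRPL22 and MRPL38 and the other probe sets called lower were added after their values were seen. The motifs are strings of letters read in RefSeq sequences of GRCh38.p14. Alternatives were pseudocounts of 1 and 64, quantile normalization, array median centring, no filter, percentile 60, the replicate block, array weights, a constant variance prior, a fit of the compared arrays alone, averaging the probe sets of a gene, adjustment over 1 probe set per gene and leaving out each array. A filter at the dimmest member was chosen after seeing the data.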

Additional observations from a re-analysis of the deposited data

How the results depend on the processing

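The count of 0 members past the threshold in Ex4 became 20 with array median centring (20 higher), 5 with array weights and 1 with the filter at the dimmest member, and ran from 0 to 9 when 1 array was left out. The Ex4 median of -0.0017 became 0.49 with centring and ran from -0.11 to 0.15 without 1 array. The 6 calls in LQ became 36 with array median centring (all higher), 0 with a constant variance prior, 11 when the compared arrays were fitted alone (8 higher, 3 lower) and 22 with array weights (13 higher, 9 lower), and 0 to 15 without 1 array. Quantile normalization gave 4 (2 higher, MRPL10 and MRPS18C, and 2 lower, MRPL9 and MRPS27). The replicate block, for which no clear pairing was seen, gave 6 (5 higher, 1 lower). The LQ median of 0.12 became -0.010 with quantile normalization and 0.70 with centring, and ran from -0.01 to 0.19 without 1 array. LQ against Ex4 gave 0 calls under every setting run. Of 13 other settings MRPS18C and MRPL10 passed in 12, MRPL46 and MRPL32 in 11, MRPS18B in 10 and MRPL50 in 7, and of 9 fits without 1 array they passed in 4, 4, 4, 4, 3 and 2. No named gene past the threshold changed sign under any setting run. Counts over all genes under these settings are not given here, so the moves are not shown to be particular to the members. Why the counts moved was not tested.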

Other observations

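The spread between arrays of a group differed. For the 75 mitochondrial ribosomal protein genes the median SD within a group was 0.29 (log2) in WT, 0.20 in Ex4 and 0.12 in LQ. Over bright genes it was 0.25, 0.22 and 0.13. MRPS12, the counterpart of the bacterial decoding-site protein S12, is a gene whose difference moved without WT replicate 1. Its brightest probe set read 8654.4 on that array and 22814.9 and 20127.4 on the other WT arrays. It read 13766.6 to 14667.2 in Ex4 and 13847.1 to 16584.3 in LQ. Over the 4 tested probe sets of MRPS12 the LQ difference ran from -0.48 to 0.93 with every array. With every array the difference of its brightest probe set was -0.03 in LQ. Without WT replicate 1 it was -0.47 in LQ (limma adjusted p = 0.043) and -0.58 in Ex4 (adjusted p = 0.026). The array left out was the one on which that probe set read lowest, so these p-values give no support for a change. MRPS27 without that array was at -0.64 in LQ (limma adjusted p = 0.026) and -0.56 in Ex4 (adjusted p = 0.048), and MRPL50 at 0.94 (adjusted p = 0.0083) and 0.98 (adjusted p = 0.0081).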
